A study of Homo sapiens with 4 samples.

Results

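The kallikrein-related peptidase genes KLK5, KLK6, KLK7, KLK8, KLK9, KLK10, KLK11, KLK12, KLK13 and KLK14 were taken by symbol from the gene count table, which gave 10 of its 58735 genes. They lie next to each other on chromosome 19, all on the minus strand, over 140.9 kb from KLK5 to KLK14. The data are RNA sequencing counts of HCC1954, an established human breast cancer cell line with amplified ERBB2, in 4 samples. The shCON group (2 samples) carried a scrambled hairpin and the shZDHHC15 group (2 samples) a hairpin against ZDHHC15, the gene of a palmitoyltransferase. The labels speak of a stable knockdown in one place and, in another, of transient transfection of the hairpin plasmids with harvest 36 h later. The study's methods also mention monoclonal cultures screened by Western blot, so it is open whether each group stands for a single clone, and the labels do not say whether the samples of a group came from separate cultures. The p-values below then measure only the spread between these samples.

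Kallikrein-related peptidases are secreted serine proteases made as inactive proenzymes, and several of them activate one another by cutting off the propeptide. In the outer layers of skin KLK5, KLK7 and KLK14 cleave the corneodesmosomes that hold the cells together, under control of the inhibitor LEKTI, which SPINK5 encodes. Most of these genes are expressed in epithelia, several respond to steroid hormones, and their levels differ between normal breast and breast tumours.

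The samples held between 17560982 and 19118704 counts each. ZDHHC15 itself was at 17617 and 15716 counts under shCON and at 0 in both samples under shZDHHC15. The line's epithelial markers EPCAM, CDH1, KRT7, KRT8, KRT18, KRT19, ERBB2 and GRB7 were present in every sample. They summed to 19500 and 21000 CPM (counts scaled to library size with TMM factors) in shCON samples. In shZDHHC15 samples the sum was 11700 and 12000 CPM. Of these 8 genes 6 were lower and 1 was higher in shZDHHC15 cells by the test used below. Over all tested genes 20.3% were lower and 21.7% higher. The largest falls were those of KRT8, KRT18 and KRT7, with log2 fold changes of -1.62, -1.58 and -0.99. KRT19 was the lowest of the 8, at 19.5 CPM in shCON cells. The 6 leukocyte markers summed to 0.713 and 0.474 CPM in shCON and to 1.72 and 1.63 CPM in shZDHHC15 samples, with CD3E at 0 in all samples. The 6 fibroblast markers summed to 5.81 and 7.17 CPM in shCON and to 11.5 and 8.56 CPM in shZDHHC15 samples, nearly all of it COL1A1. The 3 endothelial markers summed to 48.4 and 50 CPM in shCON and to 102 and 96.7 CPM in shZDHHC15 samples, through CDH5 and PECAM1, while VWF had at most 7 counts. Of the keratinocyte differentiation markers, KRT1 had at most 1 count and LOR none, while KRT10, IVL and TGM1 were present. The 6 together summed to 64.3 and 78.8 CPM in shCON and to 60.7 and 60.4 CPM in shZDHHC15 samples. The part of these marker differences in the results on the kallikrein genes was not tested. In bulk RNA, fewer cells of a type and less RNA per cell cannot be told apart.

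In ZDHHC15-depleted cells 4 of the 5 tested kallikrein genes fell and KLK10 alone was higher. KLK5, KLK6, KLK7 and KLK8 were 1.55 to 1.85-fold lower, and KLK10 was 1.46-fold higher. The test was the quasi-likelihood test of edgeR with Benjamini-Hochberg adjustment, fitted to the 15817 genes that passed a filter on low counts, and a gene was called at an adjusted p under 0.05. Of the 10 kallikrein genes, 5 passed this filter, 4 were called lower and 1 was called higher. In the same comparison 42.0% of all tested genes were called, 20.3% lower and 21.7% higher, so that a call in itself was common in these data. The median log2 fold change of the 5 genes was -0.64, against 0.0154 for all tested genes. In none of the 5 genes did the samples of one group overlap those of the other, which held for 72.5% of all tested genes.

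**Figure D1:**
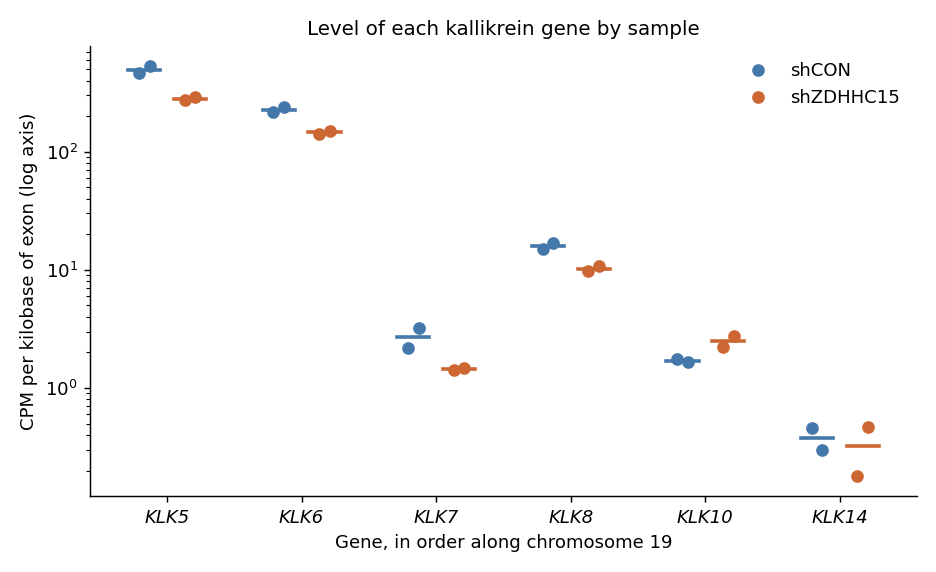
Level of each kallikrein gene with at least 1 count in every sample, in CPM per kilobase of exon on a log axis, with a point for each sample and a line at the mean of each group (n = 2). KLK5 and KLK6 stand far above the others, the shZDHHC15 points lie below the shCON points for KLK5, KLK6, KLK7 and KLK8 and above them for KLK10, and those of KLK14 are mixed.

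KLK5 (ENSG00000167754, chromosome 19, 50943303 to 50953093, GRCh38) encodes a trypsin-like protease that can activate itself and other kallikreins. Its reads numbered 13945 and 14683 under shCON against 8399 and 9329 under shZDHHC15. Both control samples were well above both depleted samples. Its level was 818 ± 74.6 CPM in shCON and 463 ± 17.1 CPM in shZDHHC15 cells (SD, n = 2). This is -0.82 on the log2 scale (adjusted p = 6.7e-06 by edgeR, standard error 0.0921). Per kilobase of exon it was the most abundant of the 10 genes, and among all genes of the table it ranked 63 in shCON and 107 in shZDHHC15 cells.

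KLK6 (ENSG00000167755, 50958631 to 50969673), the gene next to it, encodes neurosin, a trypsin-like protease best known from the nervous system. Its counts were 7784 and 7889 in shCON and 5210 and 5855 in shZDHHC15 samples, and the groups were again apart. The level went from 447 ± 28.8 to 289 ± 13.1 CPM (SD, n = 2), or -0.63 on the log2 scale (adjusted p = 6.75e-05 by edgeR, standard error 0.0907). The antisense gene AC011483.2 shares 401 of the 1976 exonic bases of KLK6 and 202 of the 1653 of KLK5. Its own counts were between 7 and 16 per sample. The strand setting of the counting is not given in the sources used here, so reads of these overlaps cannot be assigned to one gene or the other.

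KLK8 (ENSG00000129455, 50996007 to 51002711) encodes neuropsin, a trypsin-like protease of skin and brain. It received 515 and 530 counts in shCON and 338 and 395 in shZDHHC15 samples, lower in both depleted samples. The level went from 29.8 ± 2.24 to 19.1 ± 1.39 CPM (SD, n = 2), or -0.64 on the log2 scale (adjusted p = 0.00111 by edgeR, standard error 0.129). AC011473.4, a gene model on the same strand that joins exons of KLK8 and KLK9, shares 747 of the 1865 exonic bases of KLK8. It was itself counted 0 and 1 times in shCON and 5 and 10 times in shZDHHC15 samples, and how reads in the shared exons were assigned is not given in the sources used here.

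KLK7 (ENSG00000169035, 50976482 to 50984099) encodes the chymotrypsin-like protease of the outer skin. It was far less abundant than KLK5, at 97 and 133 counts in shCON and 65 and 71 counts in shZDHHC15 samples. The control samples differed from each other but were both above the depleted ones. The level went from 6.6 ± 1.81 to 3.55 ± 0.0892 CPM (SD, n = 2), or -0.88 on the log2 scale (adjusted p = 0.00856 by edgeR, standard error 0.241). Without shCON replicate 2, the sample with 133 counts, it was -0.59 and no longer significant (adjusted p = 0.107, taking the lone control sample to vary like the other group), and without the filter on low counts the adjusted p was 0.0523.

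KLK10 (ENSG00000129451, 51012739 to 51020175), first described as a gene of normal breast epithelium that is lost in many breast cancer lines, went the other way. It received 124 and 107 counts in shCON and 160 and 209 counts in shZDHHC15 samples. Both depleted samples were higher, with 1 of them close to the controls. The level was 6.57 ± 0.324 CPM in shCON and 9.62 ± 1.45 CPM in shZDHHC15 cells (SD, n = 2), or 0.55 on the log2 scale (adjusted p = 0.0277 by edgeR, standard error 0.187). The direction held in each of 13 alternatives, but the call was lost in 5 of them, with the DESeq2 Wald test (adjusted p = 0.0982), without the filter on low counts (0.0906), with glmTreat against a fold change of 1.2 (0.0885), without shCON replicate 2 (0.0799) and without shZDHHC15 replicate 2 (log2 fold change 0.38, adjusted p = 0.239). KLK5, KLK6 and KLK8 were called lower under all 13.

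**Figure D2:**
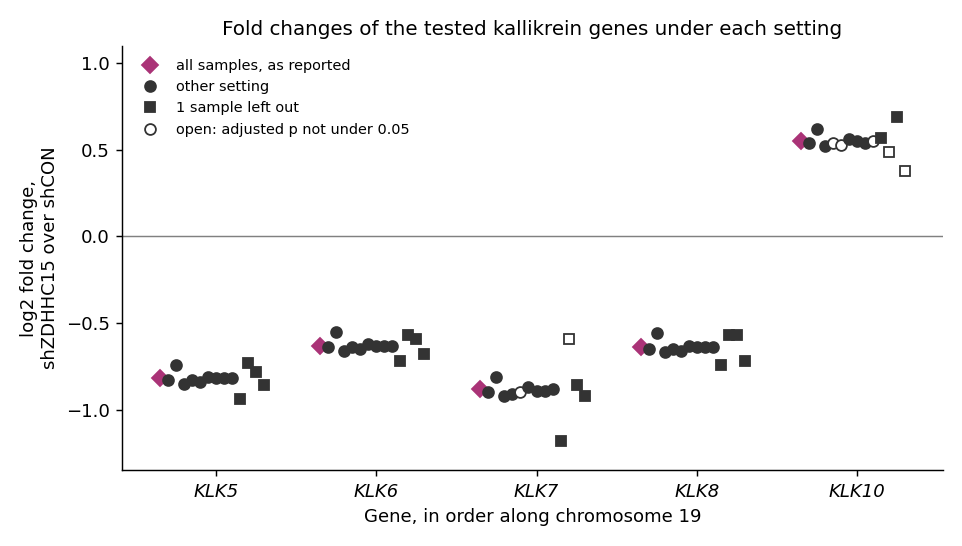
Log2 fold change of the 5 tested genes in shZDHHC15 over shCON cells (vertical axis) with all samples (diamonds), under 9 other settings (circles) and after leaving out single samples (squares), filled where the adjusted p was under 0.05 and open where it was not. KLK5, KLK6 and KLK8 are filled throughout, KLK7 is open in 2 places and KLK10 in 5, and no gene changes direction.

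The remaining 5 genes were too low to be tested. KLK14 (ENSG00000129437, 51077495 to 51084245), a trypsin-like protease of the skin cascade, received 10 and 6 counts in shCON and 4 and 11 counts in shZDHHC15 samples, so the groups overlapped. The ratio of its summed counts was 0.86, with an exact 95% interval from 0.396 to 1.86 that covers counting error only. KLK11 (ENSG00000167757) was counted 0 and 1 times in shCON and 0 and 2 times in shZDHHC15 samples. KLK9 (ENSG00000213022), KLK12 (ENSG00000186474) and KLK13 (ENSG00000167759) had 0 counts in every sample, which allows up to 3 counts or 0.153 to 0.178 CPM per sample. For KLK9 this limit says little, because 787 of its 840 exonic bases also belong to AC011473.4 and 53 bases are its own. Changes in KLK11, KLK12, KLK13 and KLK14 were not detectable at this depth.

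Levels per kilobase of exon put the tested genes in the order KLK5, KLK6, KLK8, KLK7 and KLK10 in shCON cells, at 495 ± 45.2, 226 ± 14.6, 16 ± 1.2, 2.71 ± 0.745 and 1.71 ± 0.0841 CPM per kilobase (SD, n = 2). The distances between the first 3 are several times their spread. KLK7 and KLK10 were close, at 2.19 and 3.24 against 1.77 and 1.65 CPM per kilobase in the single samples. Their order in shCON rests on the exonic lengths of 2434 bases for KLK7 and 3853 for KLK10. Before division by length they stood at 6.6 ± 1.81 and 6.57 ± 0.324 CPM (SD, n = 2). In shZDHHC15 cells KLK7 was below KLK10, at 1.43 and 1.49 against 2.23 and 2.76 CPM per kilobase. The values per kilobase of these genes did not overlap in either group. KLK14 followed, at 0.38 ± 0.115 CPM per kilobase in shCON and 0.326 ± 0.206 in shZDHHC15 cells.

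As a group the 10 genes took 0.122% and 0.133% of all counts in the shCON samples and 0.0779% and 0.083% in the shZDHHC15 samples. Their summed level was 1310 ± 107 CPM in shCON and 785 ± 33.4 CPM in shZDHHC15 cells (SD, n = 2), a ratio of 0.6. KLK5 and KLK6 made up between 95.7% and 96.7% of these counts in every sample, so the sum describes these genes and hardly the rest. Within the family, the ratios of the falling genes to KLK5 lay closer together than that of KLK10. For each 100 counts of KLK5 there were 3.69 and 3.61 counts of KLK8 in shCON and 4.02 and 4.23 in shZDHHC15 samples. The corresponding number for KLK6 was 55.8 and 53.7 in shCON and 62 and 62.8 in shZDHHC15 samples. For KLK7 the groups overlapped, at 0.696 and 0.906 against 0.774 and 0.761. KLK10 stood apart, with 0.889 and 0.729 counts in shCON and 1.9 and 2.24 in shZDHHC15 samples. With 2 samples a group the smallest two-sided p of an exact permutation test is 0.333, so these ratios were not tested. The log2 fold change of KLK10 exceeded that of KLK5 by 1.37 (combined standard error 0.208). Those of KLK6, KLK7 and KLK8 differed from that of KLK5 by 0.19 or less, with combined standard errors of 0.129 to 0.258. These errors treat the genes as independent although they come from the same 4 samples, so they describe the differences and are no test.

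**Figure D3:**
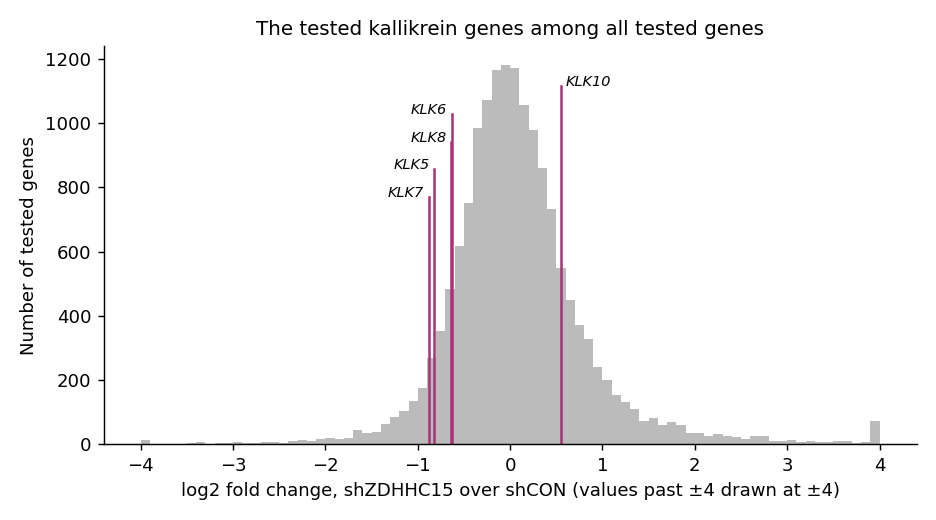
Distribution of the log2 fold changes of all 15817 tested genes in shZDHHC15 over shCON cells (number of genes in steps of 0.1), with vertical lines at the 5 tested kallikrein genes. KLK7, KLK5, KLK8 and KLK6 lie to the left of most genes, with 5.62% to 11.4% of genes below them, and KLK10 lies to the right, with 81% below it.

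Shared reads between the members are limited by their sequences, since the longest run of identical bases between annotated transcripts of any pair was 25 bases, found between KLK7 and KLK10 and between KLK9 and KLK13. The 250 bases before each RefSeq start site (GRCh38.p14) were read for 9 of the 10 genes, with 16 start sites in all and none for KLK8. Short letters were searched on both strands, and the matches are a description of these windows. A link between the matches and the fold changes was not tested. The TEAD motif GGAATG, the letters bound by the transcription factors through which YAP acts, was found in 11.9% of all 35116 such windows. Of the 16 kallikrein windows 4 held it, in KLK5 and KLK14, each at 2 places. The GC box GGGCGG, present in 42.6% of all windows, was found in 10 of the 16 kallikrein windows. These belong to KLK6, KLK7, KLK9, KLK11, KLK13 and KLK14. Some matches of either motif stand in overlapping windows of 1 gene, and in KLK13 some GC boxes overlap each other. The TATA box TATAAA (10.7% of all windows), the AP-1 motif TGANTCA (6.57%) and the steroid receptor motif TGTTCT (12.4%) were found in none of the 16 windows. The windows of KLK5 and KLK6, the abundant genes that fell, and of the more upstream start of KLK10, the gene that was higher, are shown on the minus strand with the matches to any searched motif in capitals. They span chr19:50953039-50953288 for KLK5, chr19:50969592-50969841 for KLK6 and chr19:51019862-51020111 for KLK10.
KLK5: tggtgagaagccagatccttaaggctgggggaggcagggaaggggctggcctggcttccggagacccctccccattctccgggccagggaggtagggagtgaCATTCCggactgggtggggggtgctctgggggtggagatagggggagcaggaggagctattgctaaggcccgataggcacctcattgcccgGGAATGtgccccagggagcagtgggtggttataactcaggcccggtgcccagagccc
KLK6: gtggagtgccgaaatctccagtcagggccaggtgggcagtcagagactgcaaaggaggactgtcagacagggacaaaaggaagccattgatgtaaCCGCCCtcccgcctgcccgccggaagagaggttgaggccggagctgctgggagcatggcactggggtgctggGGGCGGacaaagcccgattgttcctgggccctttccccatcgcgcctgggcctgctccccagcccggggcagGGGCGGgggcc
KLK10: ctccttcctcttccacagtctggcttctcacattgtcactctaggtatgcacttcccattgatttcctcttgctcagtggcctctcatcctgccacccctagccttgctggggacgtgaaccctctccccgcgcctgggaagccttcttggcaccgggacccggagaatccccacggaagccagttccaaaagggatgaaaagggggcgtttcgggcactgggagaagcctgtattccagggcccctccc
KLK5 carries the TEAD letters once on each strand, 148 to 143 and 57 to 52 bases before the start site. KLK6 carries 3 GC boxes, the nearest 11 to 6 bases before the start site. Neither of the 2 windows of KLK10 held a searched motif.

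In order along the chromosome the log2 fold changes were -0.82 for KLK5, -0.63 for KLK6, -0.88 for KLK7, -0.64 for KLK8 and 0.55 for KLK10, and KLK9, between KLK8 and KLK10, was untested. The change of sign falls between KLK8 and KLK10, and beyond KLK10 no member was high enough to be tested. The other genes of the kallikrein cluster, which together with these span 265.1 kb, were near 0 counts. KLK3, which encodes prostate-specific antigen, and KLK15 had none, KLK1, KLK2 and KLK4 had at most 2 counts in a sample and the pseudogene KLKP1 between 1 and 6.

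Within 300 kb on either side of the cluster, 9 further genes were tested, 4 of which were called lower and 2 higher. Before the cluster C19orf48 went from 4734 and 4849 to 2380 and 2808 counts (log2 fold change -1.01, standard error 0.098, adjusted p = 1.45e-06 by edgeR). CLEC11A, the gene of a secreted growth factor, and C19orf81 also fell, with log2 fold changes of -0.95 and -0.83. The call of C19orf81 was lost in 4 alternatives, among them without shCON replicate 2 (-0.62, adjusted p = 0.125) and without shZDHHC15 replicate 2 (-0.58, adjusted p = 0.137). After it CTU1, which encodes a tRNA-modifying enzyme, fell by 0.93 on the log2 scale, whereas VSIG10L and ETFB, which encodes a subunit of the electron transfer flavoprotein, rose by 0.80 and 0.46. The call of VSIG10L was lost in 2 alternatives and that of ETFB in 4, among them without shCON replicate 1 (0.23, adjusted p = 0.197 for ETFB). The nearest called genes on either side, C19orf48 and CTU1, were lower. Since 42.0% of all tested genes were called, no special behaviour of this stretch of chromosome can be read from these counts.

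**Figure D4:**
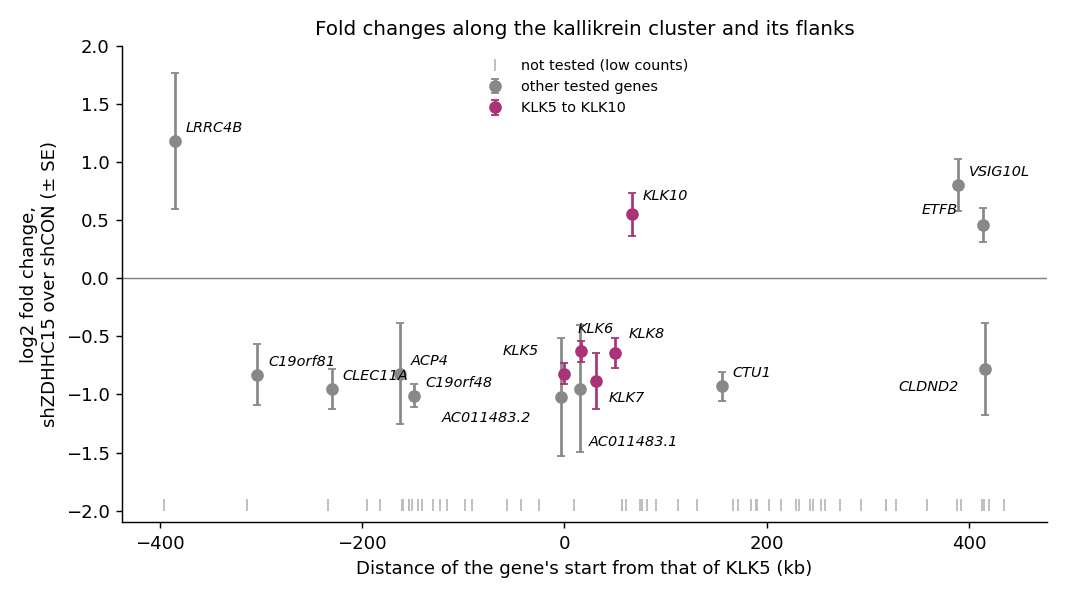
Log2 fold change in shZDHHC15 over shCON cells (points, with bars of 1 standard error) against the distance of each gene's start from that of KLK5 in kb, for tested genes of the cluster and its flanks, with ticks at the start of genes too low to be tested. KLK10 at 0.55 is the only tested gene of the cluster above 0, among neighbours between -1.02 and -0.63.

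Genes that act with these proteases were described through 4 lists. Their counts of calls stand against 42.0% of all tested genes called, 21.7% higher and 20.3% lower. Of 13 inhibitors, 6 were tested, 3 were higher and 1 was lower. SERPING1, counted among the higher genes, passed the filter on low counts only through its shZDHHC15 samples. With SERPING1 as fitted or at its bound, the median log2 fold change was 1.32. Without SERPING1 the middle value is the 0.60 of SERPINA1, which was not called. The median of all tested genes was 0.0154. SERPINA5, the protein C inhibitor, rose from 52 and 45 to 395 and 372 counts (log2 fold change 2.86, standard error 0.188, adjusted p = 2.46e-08 by edgeR). SERPINA3, which encodes alpha-1-antichymotrypsin, rose by 2.04 (standard error 0.223, adjusted p = 4.99e-06), from 45 and 46 to 222 and 187 counts. SERPING1, the C1 inhibitor, had 2 and 0 counts in shCON and 39 and 23 in shZDHHC15 samples, at least 9.54-fold higher against a floor of 3 counts per sample. CST6, which encodes a cystatin that inhibits cysteine proteases, fell by 1.15 (standard error 0.206, adjusted p = 0.000456). SERPINA1 had a log2 fold change of 0.60 (adjusted p = 0.0952) and SERPINB6 one of -0.05 (adjusted p = 0.722). The inhibitors most closely tied to the skin kallikreins were at the floor, with SPINK5 at 0 counts in all samples, SPINK6 at no more than 2 and SPINK9 at no more than 1.

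Of 13 activating and partner proteases, 8 were tested, 4 were higher and 2 lower, with a median of 0.22. Over all tested genes 21.7% were higher and 20.3% lower. The membrane proteases TMPRSS4 and TMPRSS2 rose by 1.91 and 1.45 on the log2 scale. PLAT, the tissue-type plasminogen activator, rose by 1.80 (standard error 0.111, adjusted p = 1.09e-08 by edgeR), whereas PLAU, the urokinase-type activator, fell by 0.93 (standard error 0.125, adjusted p = 3.86e-05). F12, coagulation factor XII, fell by 0.70 and PRSS8, prostasin, rose by 0.33. ST14, which encodes matriptase, a known activator of kallikrein proenzymes, was abundant at 6778 and 7026 counts in shCON and 7997 and 8170 in shZDHHC15 samples, and its log2 fold change was 0.10 (standard error 0.0905, adjusted p = 0.395).

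Of 20 receptors and substrates, 9 were tested, 4 were higher and 4 lower, with a median of -0.05. The shares over all tested genes were 21.7% higher and 20.3% lower. Both tested genes of protease-activated receptors fell. F2RL1, the gene of PAR2 and a receptor that KLK5 and KLK6 can cleave, went from 3268 and 2990 to 1585 and 1884 counts (log2 fold change -0.98, standard error 0.0976, adjusted p = 2.06e-06 by edgeR). F2R, the gene of the thrombin receptor, fell by 1.27 (standard error 0.222, adjusted p = 0.000347), and TFPI2, a Kunitz-type inhibitor gene, fell by 0.69. SCNN1G, which encodes a subunit of the epithelial sodium channel, rose by 1.16, DSP, which encodes desmoplakin, by 0.63, and IGFBP3 and FN1, the gene of fibronectin, by 0.46 each. The corneodesmosomal genes DSG1, DSC1 and CDSN, the textbook substrates in skin, had at most 6 counts in any sample.

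Of 10 steroid and related hormone receptor genes, 9 were tested, 5 were higher and 1 lower, with a median of 0.64. Among all tested genes 21.7% were higher and 20.3% lower. The oestrogen receptor genes ESR2 and ESR1 rose by 1.38 (adjusted p = 0.0207 by edgeR) and 1.09 (adjusted p = 0.000213), and the vitamin D and retinoic acid receptor genes VDR and RARA by 0.64 and 0.67. NR3C1, the glucocorticoid receptor gene, fell by 0.49 (standard error 0.144, adjusted p = 0.0135), a call lost in 3 alternatives, among them without shZDHHC15 replicate 1 (-0.31, adjusted p = 0.21). That of ESR2, at 10 counts in each shCON sample, was lost in 5, with adjusted p up to 0.153. PGR had at most 1 count.

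**Figure D5:**
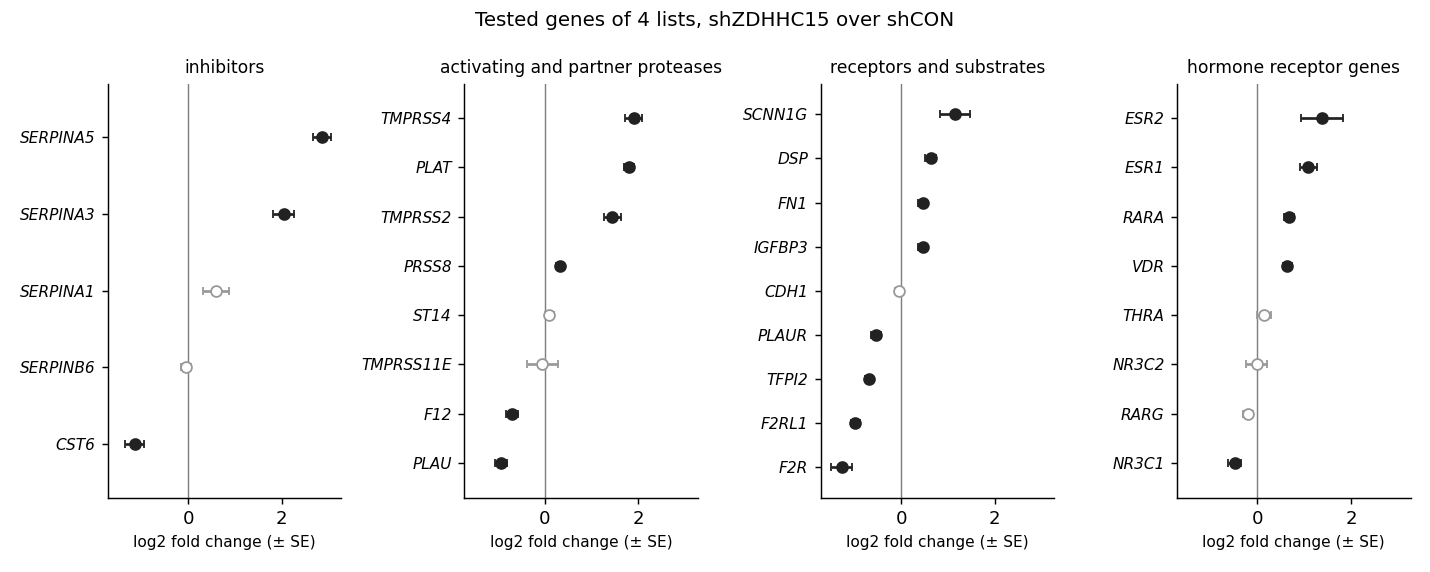
Log2 fold change in shZDHHC15 over shCON cells (horizontal axis, bars of 1 standard error) of the tested genes of the 4 lists, filled where the adjusted p was under 0.05 and open where it was not. SERPING1, given as a bound, and 1 hormone receptor gene are left out, SERPINA5 at 2.86 is the highest value drawn and F2R at -1.27 the lowest.

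KLK5, the most abundant member, was compared with 12213 other protein-coding genes for its pattern over the 4 samples, by the Euclidean distance of log2(CPM + 0.5) values centred on their mean. The nearest were ATF5, SF3B5, RPL9, SH3BGRL3 and SH2D5, at distances of 0.0199 to 0.0282. Their log2 fold changes lay between -1.07 and -0.81. SH2D5 was low, at 2.43 CPM in shCON and 1.15 CPM in shZDHHC15 cells, so that the pseudocount of 0.5 bears on its distance, and its log2 fold change of -1.07 was larger in size than that of KLK5.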

How the data were processed

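RNA of 4 HCC1954 samples was sequenced by the study from NEBNext Ultra libraries. The authors deposited raw counts per gene, without normalization, and the submitters' processing notes name hg38, HISAT2, StringTie and SAMtools. The counting tool and annotation are not given in the sources used here. All 58735 genes matched GENCODE release 29 by identifier, start, end and symbol. All 4 columns were used and 0 were left out.

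Counts were filtered with filterByExpr, scaled by TMM factors (0.962 to 1.03) and tested with glmQLFit (legacy = FALSE) and glmQLFTest of edgeR 4.0.16 (R 4.3.3, limma 3.58.1), with Benjamini-Hochberg adjustment over 15817 genes. Standard errors were taken from the fold change and F statistic. CPM per kilobase divided scaled CPM by the table's exonic length. Replicates of 1 group differed by more than counting noise (chi-square per degree of freedom 8.32 and 6.79). The tests were checked on simulated counts in which few genes changed. The check does not cover data like these, where 42.0% of tested genes were called. Sequences came from RefSeq and GENCODE tables, read with Python 3.11.15.

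The named genes were all 10 members, their overlapping and flanking genes, a choice of genes from each list, and the 5 genes nearest to KLK5. The choice from the lists favoured larger changes but was no strict ranking. A called gene that is not named can have a larger change than a named gene. The members and lists were chosen with earlier results of these data known. Alternatives were other scalings, filters and dispersions, DESeq2 1.42.0, a replicate block, glmTreat and leaving out each sample. Members of 2 gene lists are counted but not reported here by name.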

Additional observations from a re-analysis of the deposited data

How the results depend on the processing

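The count of 4 lower kallikrein genes stayed between 3 and 4 under every alternative run, and the median log2 fold change of the kallikrein genes tested, KLK10 included, stayed between -0.73 and -0.56. The count of 1 higher gene, KLK10, became 0 with the DESeq2 Wald test, 0 with no filter on low counts and 0 with glmTreat against a fold change of 1.2, and when single samples were left out it ranged from 0 to 1. With the replicate number as a block, 1 gene was higher and 4 were lower, with a median of -0.64. The numbers are not a stated pairing and were not taken as pairs in the main test. Deviations of same-numbered samples correlated with r = 0.061 over 2 pairs. This value weighs low and abundant genes alike, so it does not settle the question. The block changed no call of a member. It raised the share of all tested genes called from 42.0% to 45.7%. The adjusted p of KLK5 by edgeR went from 6.7e-06 to 8.76e-08.

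Among the other named genes 41 values of 14 genes lost their call under an alternative, among them 6 of ERBB2, 5 of ESR2, 5 of COL1A1, 4 of C19orf81, 4 of ETFB, 3 of NR3C1, 2 of PRSS8, 2 of VSIG10L, 1 of SCNN1G and 1 of FN1. A further 8 values of genes that were not called changed sign. With library size only, the log2 fold change was 0.02 for SERPINB6, 0.02 for TMPRSS11E, 0.03 for CDH1 and 0.05 for NR3C2. When single samples were left out, values ranged from -0.01 to 0.17 for ST14, from -0.06 to 0.31 for THRA, from -0.23 to 0.15 for NR3C2 and from -0.19 to 0.07 for TMPRSS11E. Over all genes, 3427 were higher and 3217 lower, against 2274 and 1883 with glmTreat, 2282 and 2350 with no filter and 3926 and 2545 with library size only. The causes were not tested. Depth limits KLK11 to KLK14, with at most 11 counts in a sample, and the 0 of KLK9 may also rest on how reads in shared exons were counted, which was not tested.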
